A study of Homo sapiens with 8 samples.

Results

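The comparison described here set 2 late libraries against 4 early libraries from the same human lymphoblastoid cell line, out of 8 libraries in the series. The late libraries were those labelled replicate 2 from cells exposed to 5 µM hexavalent chromium for 24 h and sampled 3 days and 7 days post treatment. The early libraries were both replicates sampled at 24 h of exposure to 5 µM and both replicates of the untreated control (0 µM), which the series design places ahead of exposure. The 2 libraries labelled replicate 1 at 3 and 7 days, which had the same exposure, are shown beside them as values and enter no test. The libraries were chosen by measured values: replicate 2 was selected on the counts of p53 target genes, which earlier results of these data had shown raised in late replicate 1 and not in late replicate 2. Those genes and the contrast between the late replicates are therefore a description, with no test. All 8 libraries were made from poly-A selected RNA of 1 cell line grown in RPMI medium. No unexposed cells kept in culture for 3 or 7 days were analysed here, so exposure and time in culture cannot be told apart, and the labels do not settle whether the days run from the start or from the end of exposure.

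Lymphoblastoid cells are B cells made to grow without limit by Epstein-Barr virus. The viral membrane protein LMP1 acts like an always active CD40 receptor and keeps NF-kB on, and NF-kB drives chemokine, adhesion and costimulatory genes in these cells. Hexavalent chromium enters cells as chromate through sulfate transporters, is reduced inside and damages DNA, and DNA damage activates p53, which switches on genes of arrest, repair and death.

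The late replicate 2 libraries held 11110830 counts at 3 days and 9920202 at 7 days over 23710 gene symbols, inside the 9478459 to 11110830 of all 8. Reads counted under no feature took 45.3% to 46.1% in late replicate 2, 36.5% to 39.4% in late replicate 1 and 44.4% to 51.5% in the early libraries. The libraries were not evenly spaced. Between the 2 late replicate 2 libraries the chi-square per degree of freedom over genes was 5.68, close to the 6.24 to 6.56 of the pairs control 1 with 24 h 2 and control 2 with 24 h 1, against 21.0 to 36.1 for the other early pairs. The late replicate 2 libraries stood at 17.8 to 32.8 from the early ones and at 79.2 to 95.5 from late replicate 1. The 6 libraries compared thus lay in 3 close pairs, and the late pair was about as far from the early libraries as the early pairs were from each other. The p-values below treat the 6 as independent, and the late libraries are 2 times of 1 replicate number, so they measure the spread between these libraries, which may be partly technical. B cell identity genes marked all of the libraries. In at least 1 library, 26 of 30 reached 10 CPM (read counts scaled to library size). The sum of the 30 was 4812 to 4976 CPM in late replicate 2, 3620 to 3673 CPM in late replicate 1 and 4619 to 5405 CPM in the early libraries. T and NK cell markers summed to 13.9 to 16.1 CPM in late replicate 2 and 10.8 to 15.6 CPM in the early libraries, with none of 15 at 10 CPM and CD3D, CD3G and CD8A at 0 counts. Myeloid markers, of which ITGAM was the 1 of 14 to reach 10 CPM in any library, summed to 7.04 to 7.93 CPM in late replicate 2 and 10.7 to 17.0 CPM in the early libraries, and the part of this difference in the lower genes below was not tested. Stromal and epithelial markers, of which ACTA2 was the 1 of 15 to reach 10 CPM in any library, summed to 21.1 to 23.4 CPM in late replicate 2 and 17.3 to 28.8 CPM in the early libraries. Among them COL1A1, a collagen chain, was called lower, with 0.98 and 0.903 CPM in late replicate 2, against 4.74, 2.66, 2.71 and 2.60 CPM in the early libraries (adjusted p = 0.0487, edgeR).

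Late replicate 2 differed from the early libraries by lower expression of NF-kB target, B cell activation and some guanylate-binding protein genes and by higher expression of hypoxia and mitosis genes, each described below with its count. In late replicate 1 the medians of the lists that hold these genes also lay beyond all 4 early libraries, on the same side. These traits were thus not particular to late replicate 2, and the contrast of the late replicates was not tested. In whole cultures a lower level can come from fewer cells of a state or from less RNA per cell, and these cannot be told apart. Of 12366 genes tested, 336 (2.72%) passed an adjusted p of 0.05 in the quasi-likelihood test of edgeR with Benjamini-Hochberg adjustment over all genes: 130 were higher (1.05%) and 206 lower (1.67%). The change exceeded 1 on the log2 scale in 46 of the higher and 109 of the lower genes. Leaving the p53 list aside, 108 of the higher and 171 of the lower genes stood on none of the gene lists below. The 206 lower genes include CD82, which is on the list of p53 targets that fixed the choice of replicate, so its call is no result. Among the 336 the size of the log2 fold change ran from 0.46 to 4.43 with a median of 0.95, and the median over all genes tested was -0.01. The median absolute log2 difference between the 2 late libraries, 7 against 3 days, was 0.12 in these genes, with 3 of the 336 over 1. Over all 12366 genes tested it was 0.15, with 236 over 1. The test favours genes whose late libraries agree, so the likeness in called genes follows partly from the choice. Both late libraries lay above all 4 early libraries in 14.5% of genes and below all 4 in 14.5%.

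**Figure D1:**
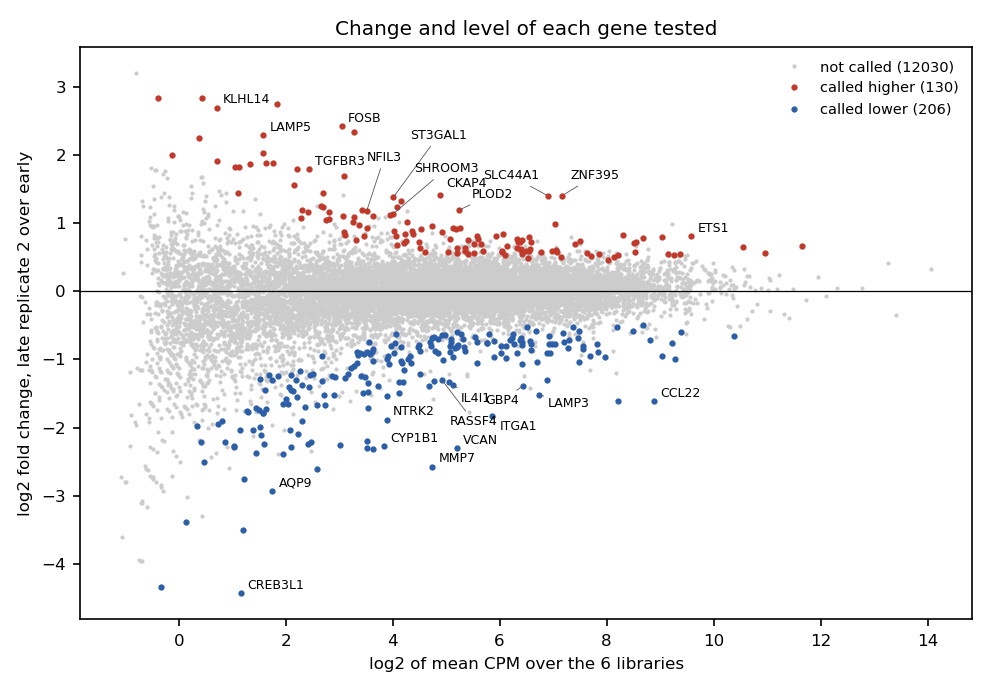
Log2 fold change of late replicate 2 over early libraries against the log2 of the mean CPM over the 6 libraries, for the 12366 genes tested. Red points are the 130 genes called higher, blue points the 206 called lower and grey points the rest, and the named genes are the 12 of smallest p in each direction. The lower genes reach larger changes than the higher ones, down to CREB3L1.

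The number of genes called rested on which libraries were counted as separate. When close libraries were summed into 3 units, an alternative chosen after seeing the data, 12 genes were higher and 24 lower, and all 36 were among the 336. Without the 3 day library or without the 7 day library of replicate 2 the test called 0 genes (smallest adjusted p 0.0652 and 0.0611), with 1172 and 1250 genes at an unadjusted p under 0.05, against 2162 with both. Set against only control 1 and 24 h 2 the late pair gave 1305 higher and 1157 lower genes, and against only control 2 and 24 h 1 it gave 1223 and 1366. With control libraries alone as the comparison, 78 were higher and 117 lower, and with 24 h libraries alone 9 and 24. Leaving out control replicate 2 gave 57 and 99, and leaving out 24 h replicate 1 gave 219 and 280.

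**Figure D2:**
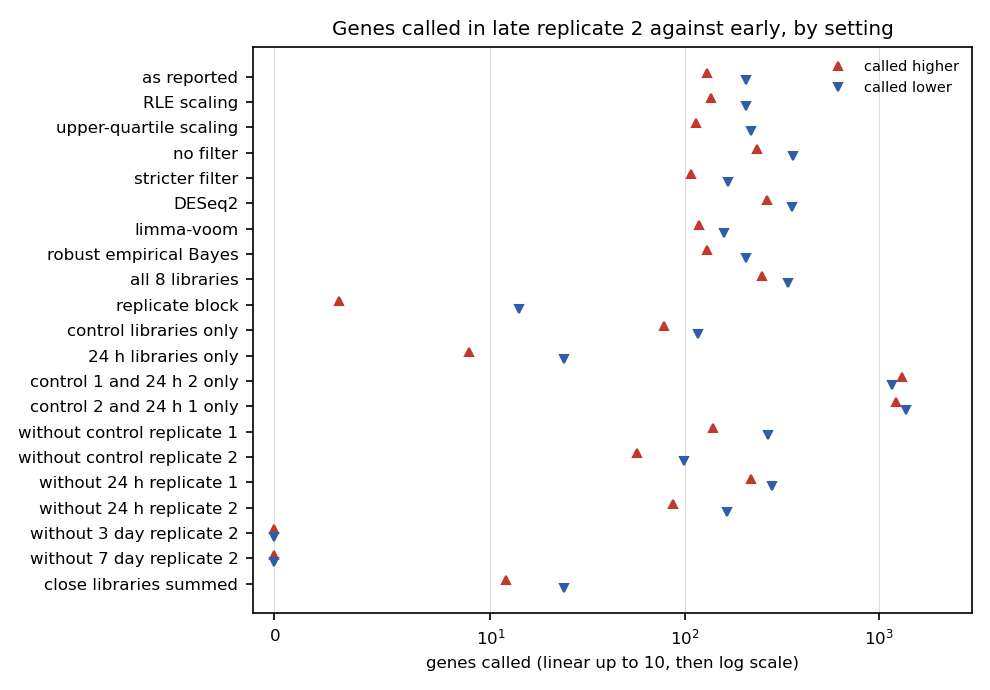
Number of genes called higher (red, upward triangles) and lower (blue, downward triangles) in late replicate 2 against early libraries under each setting, on an axis that is linear up to 10 and logarithmic above. As reported the numbers are 130 and 206, they reach 1305 and 1366 against a single close early pair, and they are 0 without either late library.

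In the values below the late replicate 2 libraries are given as 3 days and then 7 days, and the early libraries as control replicates 1 and 2 and then 24 h replicates 1 and 2. Log2 fold changes are late replicate 2 over early with their standard error, from 2 late and 4 early libraries. Apart from defining list members and some genes named after their values were seen, genes were named only if both late libraries lay beyond all 4 early ones. For those genes the separation follows from the choice and is no further result.

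The p53 targets, which fixed the choice of replicate, are shown first. CDKN1A, the cell cycle inhibitor p21, stood at 73.7 and 63.5 CPM in late replicate 2, at 388 and 367 CPM in late replicate 1, and at 103, 79.1, 80.2 and 103 CPM in the early libraries. MDM2, the ubiquitin ligase that p53 induces against itself, had 1252 and 1247 CPM in late replicate 2, 2134 and 2238 CPM in late replicate 1, and 1555, 1168, 1204 and 1863 CPM in the early libraries. The death receptor gene FAS had 157 and 147 CPM in late replicate 2, 346 and 373 CPM in late replicate 1, and 184, 237, 241 and 197 CPM in the early libraries. CDKN1A and FAS in late replicate 2 lay below all early libraries, while MDM2 lay among them. TP53I3, an oxidoreductase gene, had 5.08 and 6.82 CPM in late replicate 2, 43.6 and 42.9 CPM in late replicate 1, and 4.42 to 9.85 CPM in the early libraries. Of 46 targets with enough counts among 47 listed, 19 lay below all early libraries in both late replicate 2 libraries and 3 above. Over all genes tested the share was 14.5% in each direction. The median of the targets relative to the early mean was -0.29 at 3 days and -0.32 at 7 days. In late replicate 1 it was 0.94 at both times, with 38 above all early libraries.

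**Figure D3:**
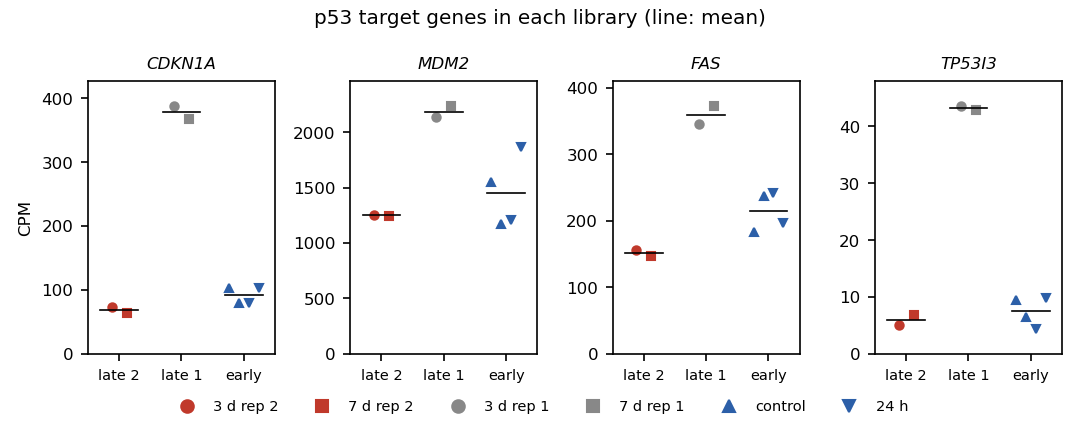
CPM of 4 p53 targets in each of the 8 libraries, with late replicate 2 (red), late replicate 1 (grey) and early libraries (blue) from left to right and a line at each mean. Late replicate 1 stands above all other libraries for each gene, and late replicate 2 lies below the early libraries for CDKN1A and FAS and among them for MDM2 and TP53I3.

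The lower genes of smallest p encode, among others, an integrin subunit, matrix proteins and a chemokine. ITGA1, the integrin subunit that pairs with beta-1 to bind collagen, had 20.7 and 22.2 CPM in late replicate 2, against 70.3, 77.2, 83.9 and 71.5 CPM in the early libraries (log2 fold change -1.82 ± 0.14, adjusted p = 0.000711). Its partner ITGB1 had 62.0 and 59.9 CPM in late replicate 2, against 64.7, 62.8, 71.4 and 66.5 CPM in the early libraries (-0.12 ± 0.12, adjusted p = 0.652). MMP7, a matrix metalloprotease, had 6.14 and 6.32 CPM in late replicate 2, against 27.9, 41.4, 45.6 and 33.2 CPM in the early libraries (-2.57 ± 0.24, adjusted p = 0.0013). The late libraries lay far under the lowest early value for ITGA1 and MMP7 and just under it for ITGB1. VCAN, the matrix proteoglycan versican, fell to 10.33 and 10.03 CPM in late replicate 2, against 54.3, 43.1, 39.9 and 63.1 CPM in the early libraries (-2.30 ± 0.21, adjusted p = 0.0013). LAMP3, a lysosomal membrane protein of maturing dendritic cells, had 46.8 and 49.0 CPM in late replicate 2, against 126, 142, 152 and 128 CPM in the early libraries (-1.52 ± 0.13, adjusted p = 0.0013). In late replicate 1 LAMP3 stood at 144 and 143 CPM, inside the early range, whereas ITGA1 stood there at 22.7 and 23.4 CPM. That contrast was not tested.

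Enzymes, receptors and a membrane-bound transcription factor fell as well. CYP1B1, a cytochrome P450 induced through the aryl hydrocarbon receptor, had 4.54 and 3.51 CPM in late replicate 2, against 20.4, 15.0, 19.5 and 23.0 CPM in the early libraries (-2.27 ± 0.23, adjusted p = 0.00197). NTRK2, the neurotrophin receptor TrkB, had 6.14 and 4.42 CPM in late replicate 2, against 17.9, 19.7, 21.8 and 18.8 CPM in the early libraries (-1.88 ± 0.19, adjusted p = 0.00232). IL4I1, a secreted amino acid oxidase of activated B cells and antigen-presenting cells, had 16.0 and 17.9 CPM in late replicate 2, against 42.7, 49.1, 45.1 and 38.7 CPM in the early libraries (-1.38 ± 0.15, adjusted p = 0.00258). For these genes every late value was under every early value, as the naming rule required. RASSF4, a Ras association domain gene, fell to 15.1 and 15.6 CPM in late replicate 2, against 41.6, 36.2, 35.9 and 36.6 CPM in the early libraries (-1.29 ± 0.14, adjusted p = 0.00258). CREB3L1, which is anchored in the endoplasmic reticulum until it is cleaved, was read 2 and 1 times in the late libraries and 32 to 37 times in each early library, a count ratio per library size of 0.0433 (95% interval 0.00882 to 0.129 for counting error alone, adjusted p = 0.00258). AQP9, a water and glycerol channel, had 13 counts in the late libraries together and 198 in the early ones, a ratio of 0.13 (0.0679 to 0.227, adjusted p = 0.00253). Reads carry no molecular identifiers here, so such intervals cover counting error only.

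On the higher side the gene of smallest p was SLC44A1, a choline transporter. It had 207 and 200.3 CPM in late replicate 2, against 81.7, 75.4, 76.6 and 74.2 CPM in the early libraries (1.40 ± 0.11, adjusted p = 0.000711). CKAP4, a membrane protein that shapes sheets of the endoplasmic reticulum, had 49.9 and 51.0 CPM in late replicate 2, against 20.9, 17.4, 20.8 and 16.8 CPM in the early libraries (1.41 ± 0.14, adjusted p = 0.00166). PLOD2, a lysyl hydroxylase of collagen, had 58.9 and 61.8 CPM in late replicate 2, against 25.0, 24.2, 30.4 and 26.0 CPM in the early libraries (1.19 ± 0.13, adjusted p = 0.00258). For all 3 genes the late values stood well clear of the highest early value. In late replicate 1 they stood at 62.3 and 67.6 CPM for SLC44A1, 17.5 and 17.3 CPM for CKAP4, and 30.1 and 26.8 CPM for PLOD2. ST3GAL1, a sialyltransferase, rose to 28.2 and 26.5 CPM in late replicate 2, against 10.7, 9.41, 9.34 and 12.5 CPM in the early libraries (1.38 ± 0.16, adjusted p = 0.00321). TGFBR3, the TGF-beta co-receptor betaglycan, rose to 10.3 and 10.2 CPM in late replicate 2, against 2.46, 2.56, 4.22 and 2.60 CPM in the early libraries (1.8 ± 0.24, adjusted p = 0.00877).

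Transcription factor genes were also among the higher ones. ETS1, a factor of lymphocytes that restrains plasma cell formation in the mouse, had 1092 and 1057 CPM in late replicate 2, against 639, 632, 559 and 609 CPM in the early libraries (0.81 ± 0.11, adjusted p = 0.0079). NFIL3, a basic leucine zipper repressor, had 17.8 and 18.5 CPM in late replicate 2, against 8.16, 8.69, 8.14 and 7.16 CPM in the early libraries (1.17 ± 0.15, adjusted p = 0.00778). ZNF395, a zinc finger gene, had 253 and 241 CPM in late replicate 2, against 80.2, 106, 118 and 68.1 CPM in the early libraries (1.40 ± 0.19, adjusted p = 0.00969). For the 3 genes the late libraries lay well clear of the early ones, and NFIL3 in late replicate 1 reached 14.1 and 19.9 CPM. KLHL14, a kelch family gene, had 80 counts in the late libraries and 24 in the early ones, a ratio of 6.59 (95% interval 4.13 to 10.9 for counting error, adjusted p = 0.00567). SHROOM3, LAMP5 and FOSB completed the 12 of smallest p, at log2 fold changes of 1.13, 2.29 and 2.42.

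**Figure D4:**
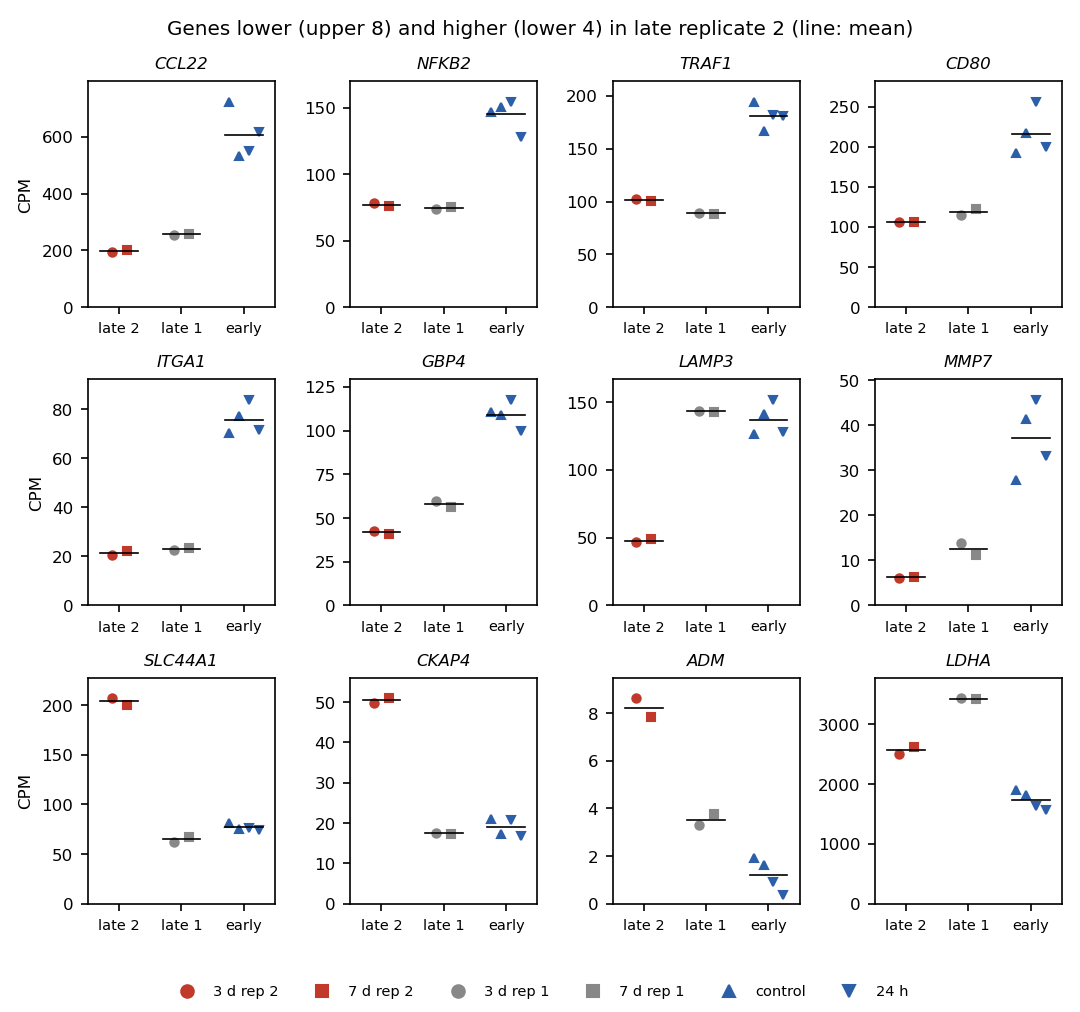
CPM of 12 genes in each of the 8 libraries, with late replicate 2 (red) on the left, late replicate 1 (grey) in the middle and early libraries (blue) on the right, and a line at each mean. The upper 8 genes are below and the lower 4 above all early libraries in late replicate 2, a separation that the naming rule required for most of them. Late replicate 1 lies near late replicate 2 for CCL22, NFKB2, TRAF1, CD80 and ITGA1 but inside the early range for LAMP3.

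The lists of genes below were chosen with earlier results of these data known, so their counts describe the change and do not test it. NF-kB targets were lower throughout: all 32 tested of 35 listed had a negative log2 fold change, with a median of -0.76. Of these, 14 passed the test, all lower, where 1.67% of all genes did. Both late libraries lay below all early libraries in 25 members, against 14.5% of all genes tested. The list shares NINJ1, which was not called, with the p53 targets that fixed the choice of replicate. The sequences of 3 promoters are shown because these genes were called together and carry the motif that NF-kB binds. In the RefSeq promoters (250 bases ahead of each gene's start, GRCh38.p14), 5 of 12 called members with an entry held the kB motif on either strand, as did 11.5% of the tested genes with an entry (9748 of 12366) and 9.96% of all 35116 promoters. Entries covered 25 of 32 tested members, and no share over the list is given. Capitals mark the motif, which in CCL22 is a pair of overlapping matches. The window of CCL22 is chr16:57358577-57358627 on the plus strand, that of TNFAIP3 chr6:137867172-137867233 on the plus strand and that of NFKBIA chr14:35404801-35404850 on the minus strand.
CCL22: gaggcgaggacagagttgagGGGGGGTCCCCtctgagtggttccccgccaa
TNFAIP3: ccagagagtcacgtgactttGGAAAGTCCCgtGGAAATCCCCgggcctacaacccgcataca
NFKBIA: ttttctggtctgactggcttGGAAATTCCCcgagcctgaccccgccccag

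CCL22, a chemokine that draws CCR4-bearing T cells, had 195 and 202 CPM in late replicate 2, against 724, 533, 552 and 617 CPM in the early libraries (-1.61 ± 0.15, adjusted p = 0.0013). TNFAIP3, the deubiquitinase A20 that dampens NF-kB signalling, had 404 and 412 CPM in late replicate 2, against 603, 678, 815 and 668 CPM in the early libraries (-0.76 ± 0.14, adjusted p = 0.0233). NFKBIA, the inhibitor that holds NF-kB in the cytoplasm, had 162 and 146 CPM in late replicate 2, against 233, 331, 395 and 239.9 CPM in the early libraries (-0.96 ± 0.22, adjusted p = 0.0461). Chemokine, deubiquitinase and inhibitor alike were lower in both late libraries than in any early one. NFKB2, which encodes p100 and p52, had 78.4 and 75.9 CPM in late replicate 2, against 146, 150.4, 154 and 128 CPM in the early libraries (-0.91 ± 0.13, adjusted p = 0.00969). TRAF1, an adaptor of TNF receptors, had 103 and 100.5 CPM in late replicate 2, against 195, 167, 182 and 181 CPM in the early libraries (-0.84 ± 0.12, adjusted p = 0.00969). TNFAIP2, CCL17, ICAM1, CD83, LTA, IER3, EBI3, BIRC3 and CCL3 also fell, by 0.52 (CCL3) to 2.04 (CCL17) on the log2 scale. Among the subunit genes that did not pass, REL had 60.4 and 66.5 CPM in late replicate 2, against 92.2, 103, 115 and 84.1 CPM in the early libraries (adjusted p = 0.0536), RELB had 11.7 and 8.43 CPM in late replicate 2, against 16.2, 18.4, 18.2 and 13.0 CPM in the early libraries (adjusted p = 0.103), and NFKB1 had 208 and 212 CPM in late replicate 2, against 230.1, 253, 242 and 217 CPM in the early libraries (adjusted p = 0.508). The list median was -0.67 at 3 days and -0.82 at 7 days in late replicate 2, -0.46 and -0.51 in late replicate 1, and -0.15 to 0.19 in the early libraries. Summing close libraries left 1 member called, CCL22, and leaving out either late library left 0.

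Activation genes of B cells, which share CCL22, CD40, CD83, EBI3, ICAM1 and TRAF1 with the NF-kB list, were lower in 21 of 24 tested members with a median of -0.62. Those lower include FAS, which was not called and is on the list of p53 targets that fixed the choice of replicate. Of these 10 fell, where 1.67% of all genes did, and 5 of the 10 (CCL22, TRAF1, ICAM1, CD83 and EBI3) are the called members shared with the NF-kB list. With close libraries summed 1 was called lower, and without either late library 0. CD80, a costimulatory ligand of CD28, had 106 CPM in both late replicate 2 libraries, against 192, 217, 256 and 199 CPM in the early libraries (-1.04 ± 0.15, adjusted p = 0.00969). IL2RA, the interleukin-2 receptor alpha chain, had 11.8 CPM in both late replicate 2 libraries, against 22.9, 24.1, 25.0 and 21.6 CPM in the early libraries (-0.99 ± 0.15, adjusted p = 0.0105). CD44, a hyaluronan receptor, had 329 and 317 CPM in late replicate 2, against 705, 528, 563 and 700.2 CPM in the early libraries (-0.95 ± 0.15, adjusted p = 0.012). These genes stood at about equal levels at 3 and 7 days and below every early library. CD86, the partner of CD80, had 54.1 and 51.8 CPM in late replicate 2, against 77.8, 71.3, 65.2 and 86.7 CPM in the early libraries (-0.51 ± 0.14, adjusted p = 0.085). In late replicate 1 CD86 stood at 99.8 and 103 CPM and CD80 at 115 and 122 CPM. The list median was -0.62 and -0.58 in late replicate 2, -0.56 and -0.55 in late replicate 1, and -0.11 to 0.17 in the early libraries.

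In the adhesion, chemokine and TNF family lists few members passed, and with close libraries summed 2, 1 and 0 were called. Over all genes tested 1.05% passed as higher and 1.67% as lower. Of 22 adhesion and integrin genes tested, 4 fell (ITGA1, VCAM1, CD44 and ICAM1) and ITGAE rose. VCAM1, the ligand of integrin alpha-4 beta-1, had 1.07 and 1.91 CPM in late replicate 2, against 7.02, 5.42, 5.12 and 7.71 CPM in the early libraries (-2.10 ± 0.32, adjusted p = 0.012). ITGAE, the alpha chain that binds E-cadherin, had 27.7 and 24.4 CPM in late replicate 2, against 16.1, 14.0, 15.9 and 16.3 CPM in the early libraries (0.74 ± 0.14, adjusted p = 0.025). VCAM1 was thus low throughout and lowest late, while ITGAE went the other way. Of 21 chemokines and receptors, CCL22, CCL17, CXCR5 and CCL3 fell and none rose, with a median of -0.52. CXCR5, the receptor that brings B cells into follicles, had 3.03 and 3.01 CPM in late replicate 2, against 8.60, 6.13, 7.03 and 6.23 CPM in the early libraries (-1.21 ± 0.24, adjusted p = 0.029). Of 26 TNF family ligands and receptors, TNFSF4, LTA and TNFRSF9 fell, with a median of -0.38. This list shares FAS, TNFRSF10A and TNFRSF10B, none of them called, with the p53 targets that fixed the choice of replicate. TNFSF4, the ligand OX40L, had 12.6 and 11.9 CPM in late replicate 2 and 56.0 and 51.3 CPM in late replicate 1, with 26.7, 21.8, 19.5 and 27.0 CPM in the early libraries (-0.95 ± 0.18 for late replicate 2 over early, adjusted p = 0.025). The late replicates thus lay on opposite sides of the early libraries for TNFSF4, a contrast that was not tested. CCL3 has near-identical copies, so its level is uncertain.

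Interferon-stimulated genes were lower in 34 of 40 members with a median of -0.40, and 3 of the 40 passed, all lower, where 1.67% of all genes did. Against the pair control 2 and 24 h 1 alone 26 were lower, against control 1 and 24 h 2 alone 4 were higher and 8 lower, and with close libraries summed 0 were called. Of all genes tested, 1366 of 12060 were called lower against control 2 and 24 h 1 alone. Against control 1 and 24 h 2 alone 1305 of 12162 were called higher and 1157 lower. HERC6, an interferon-induced ubiquitin ligase family gene, had 73.3 and 77.0 CPM in late replicate 2, against 125, 162, 150.5 and 124 CPM in the early libraries (-0.90 ± 0.15, adjusted p = 0.0145). IFIT3, which helps bind viral RNA, had 127 and 129 CPM in late replicate 2, against 199, 322, 265 and 197 CPM in the early libraries (-0.94 ± 0.20, adjusted p = 0.0395). IFI6, an interferon-induced membrane protein, had 111 and 109.6 CPM in late replicate 2, against 160.1, 204, 198 and 162 CPM in the early libraries (-0.72 ± 0.14, adjusted p = 0.0295). The early libraries split within these genes, with control 2 and 24 h 1 above control 1 and 24 h 2 for IFIT3 and IFI6, and the list median was 0.30 and 0.21 in the first pair and -0.22 and -0.27 in the second. It was -0.36 and -0.34 in late replicate 2, so that the late libraries lay under all 4, and -0.72 and -0.65 in late replicate 1. ISG15, an interferon-induced ubiquitin-like protein, had 526 and 495 CPM in late replicate 2, against 536, 693, 627 and 418 CPM in the early libraries (-0.16 ± 0.18, adjusted p = 0.727). The interferon-stimulated response element (GAAA, any 2 bases and GAAA, on either strand) stood in the RefSeq promoters of 19 of the 32 list members with an entry, which is 59.4%, against 2.69% of the tested genes with an entry and 3.02% of all promoters. The windows of both called genes that hold it are shown, with the element in capitals, for IFI6 at chr1:27672256-27672368 on the minus strand and for IFIT3 at chr10:89327821-89327904 on the plus strand.
IFI6: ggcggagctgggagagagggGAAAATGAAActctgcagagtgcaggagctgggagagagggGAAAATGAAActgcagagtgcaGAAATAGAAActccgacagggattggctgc
IFIT3: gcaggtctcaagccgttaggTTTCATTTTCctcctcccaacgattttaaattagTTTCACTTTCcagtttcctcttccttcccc

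Of the 5 guanylate-binding proteins tested, GTPases induced by interferon gamma, GBP1, GBP4 and GBP5 fell, and GBP2 (-0.42 ± 0.14, adjusted p = 0.15) and GBP3 (-0.39 ± 0.16, adjusted p = 0.243) did not pass. GBP4 had 42.7 and 40.9 CPM in late replicate 2, against 110.5, 109, 118 and 99.5 CPM in the early libraries (-1.39 ± 0.13, adjusted p = 0.0013). GBP1 had 88.3 and 89.5 CPM in late replicate 2, against 155, 151, 143 and 158 CPM in the early libraries (-0.77 ± 0.11, adjusted p = 0.0104). CIITA, the master activator of MHC class II genes, had 54.9 and 48.1 CPM in late replicate 2, against 93.1, 71.2, 79.6 and 94.1 CPM in the early libraries (-0.72 ± 0.15, adjusted p = 0.0341). Of the 17 genes of the list tested, GBP4, GBP1, GBP5, WARS and CIITA fell, where 1.67% of all genes did. APOL1 rose, where 1.05% of all genes did, to 115 and 126 CPM in late replicate 2, against 76.8 to 84.6 CPM in the early libraries (0.59 ± 0.11, adjusted p = 0.025). Of 21 MHC class II genes, a list that also holds CIITA, 17 were lower with a median of -0.39. CIITA and HLA-DQA1 passed as lower, where 1.67% of all genes did. HLA-DRA, the alpha chain of HLA-DR, had 2122 and 2386 CPM in late replicate 2, 4412 and 4290 CPM in late replicate 1 and 3140, 3095, 2785 and 2790 CPM in the early libraries (-0.39 ± 0.12 for late replicate 2 over early, adjusted p = 0.113). HLA-DRA lay below all early libraries in late replicate 2 and above all in late replicate 1. LGMN, an endosomal protease, rose to 128 and 104 CPM in late replicate 2, against 72.8 to 83.8 CPM in the early libraries (0.59 ± 0.13, adjusted p = 0.0389). Of 20 MHC class I genes edgeR and limma-voom called none and DESeq2 called 1, with 3 at an unadjusted p under 0.05 and a median of -0.07. Over all genes DESeq2 called 620 of 12345, and 17.5% had an unadjusted p under 0.05. HLA genes are polymorphic and alike, so their counts are uncertain.

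**Figure D5:**
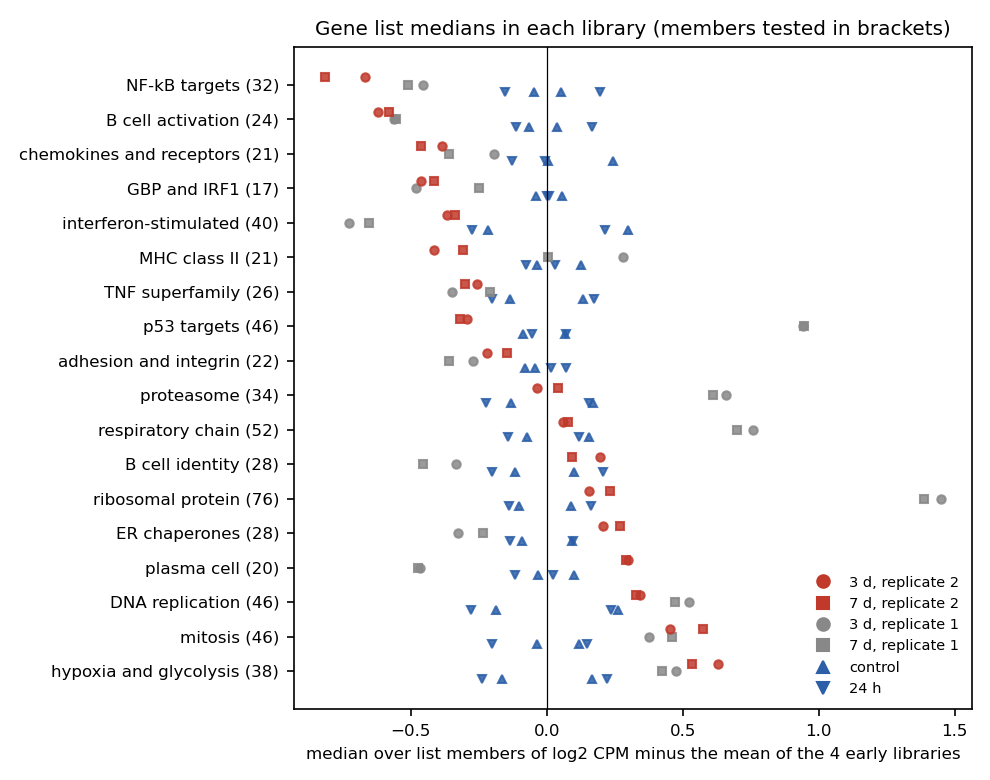
Median over the tested members of each gene list of log2 CPM minus the mean of the 4 early libraries, for each of the 8 libraries, with late replicate 2 in red, late replicate 1 in grey and early libraries in blue from top to bottom within a list. Late replicate 2 lies left of all early libraries for NF-kB targets and B cell activation genes and right of them for mitosis and hypoxia genes, and stays at or below 0.23 for ribosomal protein, respiratory chain and proteasome genes, for which late replicate 1 lies far to the right.

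Hypoxia and glycolysis genes were higher in 37 of 38 members tested, with a median of 0.55. Of these, 7 rose, where 1.05% of all genes did, and none fell. Both late libraries lay above all early libraries in 30 members, against 14.5% of all genes tested. LDHA, the lactate dehydrogenase subunit, had 2500 and 2621 CPM in late replicate 2, against 1892, 1823, 1640 and 1566 CPM in the early libraries (0.56 ± 0.12, adjusted p = 0.0345). PGK1, a glycolytic kinase, had 2114 and 1835 CPM in late replicate 2, against 1243, 1256, 1461 and 1089 CPM in the early libraries (0.64 ± 0.14, adjusted p = 0.0354). P4HA1, a collagen prolyl hydroxylase subunit, had 432 and 459 CPM in late replicate 2, against 214, 279, 301 and 213 CPM in the early libraries (0.82 ± 0.16, adjusted p = 0.0284). LDHA, PGK1 and P4HA1 thus lay above every early library at both times. In late replicate 1 LDHA stood at 3436 and 3417 CPM, PGK1 at 1704 and 1609 CPM and P4HA1 at 224 and 212 CPM. The list median was 0.63 and 0.53 in late replicate 2, 0.47 and 0.43 in late replicate 1, and -0.24 to 0.22 in the early libraries. ADM, the hypoxia-induced peptide adrenomedullin, had 175 counts in the late libraries and 51 in the early ones, a ratio of 6.78 (95% interval 4.94 to 9.46 for counting error, adjusted p = 0.0104). ANKRD37 and NDRG1, both known as hypoxia-induced, rose by 1.24 and 1.45 on the log2 scale, and GAPDH, which shares reads with many processed copies, by 0.67. BNIP3, a mitophagy receptor, had 221 and 227 CPM in late replicate 2, against 108, 141, 170.5 and 96.1 CPM in the early libraries and did not pass (0.79 ± 0.20, adjusted p = 0.069). Of all genes tested, 156 of 12290 were called without control replicate 2 and 499 of 12288 without 24 h replicate 1. Against the pair control 1 and 24 h 2 alone 2462 of 12162 were called. Without control replicate 2 the number of members called was 3, without 24 h replicate 1 it was 19, against the pair control 1 and 24 h 2 it was 36, and with close libraries summed it was 1. Without either late library it was 0.

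The core of the hypoxia response element (ACGTG or GCGTG, either strand) stood in the promoters of all 6 called members with an entry. Over the list it stood in 23 of 34, which is 67.6%, against 57.7% of the tested genes with an entry and 43.2% of all promoters. A motif this short is common, and a match describes the letters only. The windows of P4HA1 (chr10:73096928-73096972, minus strand) and ANKRD37 (chr4:185396659-185396722, plus strand) are shown with the core in capitals, since both genes changed by more than the list median. In ANKRD37 the first match reads the same on both strands.
P4HA1: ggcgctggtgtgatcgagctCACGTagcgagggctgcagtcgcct
ANKRD37: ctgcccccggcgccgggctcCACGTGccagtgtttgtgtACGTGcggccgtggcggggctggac

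Genes of mitosis were higher in all 46 members tested, with a median of 0.50. Both late libraries lay above all early libraries in 41 members, against 14.5% of all genes tested. The list median was 0.45 and 0.58 in late replicate 2, 0.38 and 0.46 in late replicate 1, and -0.20 to 0.15 in the early libraries. DLGAP5, NEK2, TOP2A and BUB1B passed the test, where 1.05% of all genes did in this direction, and 41 had an unadjusted p under 0.05, where 17.5% of all genes did. DLGAP5, a spindle assembly factor, had 158 and 169.7 CPM in late replicate 2, against 111, 117, 96.1 and 108 CPM in the early libraries (0.60 ± 0.12, adjusted p = 0.0292). TOP2A, the topoisomerase of dividing cells, had 723 and 822 CPM in late replicate 2, against 489, 565, 496 and 573 CPM in the early libraries (0.54 ± 0.12, adjusted p = 0.0447). Both genes lay above every early library. CCNB1, the mitotic cyclin, had 189.9 and 233 CPM in late replicate 2, against 199.6, 142, 116 and 219 CPM in the early libraries and did not pass (0.32 ± 0.22, adjusted p = 0.524). CDK1, the mitotic kinase, had 362 and 332 CPM in late replicate 2, against 237, 218, 241 and 289.5 CPM in the early libraries (0.49 ± 0.13, adjusted p = 0.0758), and the proliferation marker MKI67 had 466 and 593 CPM in late replicate 2, against 409.5, 421, 302 and 401 CPM in the early libraries (0.46 ± 0.16, adjusted p = 0.15). The number called ranged from 0 with control libraries alone, with 24 h libraries alone, without control replicate 2, without either late library and with close libraries summed, to 41 against the pair control 2 and 24 h 1. Against that pair 2589 of all 12060 genes tested were called. The cell cycle homology region (TTTGAA or TTCGAA, either strand), through which the DREAM complex holds mitotic genes down, stood in 21 of 39 promoters of the list, which is 53.8%, against 10.1% of the tested genes with an entry and 14.3% of all promoters. CCAAT stood in 29 of them, which is 74.4%, against 35.8% of the tested genes with an entry and 32.0% of all promoters. The windows of DLGAP5 (chr14:55191669-55191743) and TOP2A (chr17:40418022-40418110), both on the minus strand, are shown with the cell cycle homology region in capitals.
DLGAP5: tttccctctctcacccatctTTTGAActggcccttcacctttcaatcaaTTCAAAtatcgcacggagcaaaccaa
TOP2A: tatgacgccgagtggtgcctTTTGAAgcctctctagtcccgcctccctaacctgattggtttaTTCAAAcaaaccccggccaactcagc

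DNA replication genes were also higher in all 46 members tested, with a median of 0.32, but edgeR and limma-voom called none and DESeq2 called 2. An unadjusted p under 0.05 was found in 15, where 17.5% of all genes had one. The early pairs lay apart here, and late replicate 2 lay just above the higher pair. The list median was 0.26 and 0.23 in control 1 and 24 h 2, -0.19 and -0.28 in control 2 and 24 h 1, and 0.34 and 0.33 in late replicate 2. RRM2, a ribonucleotide reductase subunit, had 877 and 904 CPM in late replicate 2, against 605, 301, 264 and 619 CPM in the early libraries (0.99 ± 0.31, adjusted p = 0.119). PCNA, the sliding clamp and also a p53 target, had 388 and 420.2 CPM in late replicate 2, 1184 and 1138 CPM in late replicate 1, and 446, 355, 299 and 448 CPM in the early libraries. As p53 targets fixed the choice of replicate, these values are a description. Set against the pair control 1 and 24 h 2 alone, 34 of the 46 genes were higher and 12 lower.

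Immediate early genes divided. FOSB and FOS, subunits of AP-1, and KLF2, a quiescence factor of lymphocytes, rose, IER3 fell, and the other 22 of 26 did not pass. Beside this list and the B cell identity and plasma cell lists that follow, 1.05% of all genes passed as higher and 1.67% as lower. FOSB had 16.0 and 20.3 CPM in late replicate 2, against 5.62, 2.66, 1.91 and 3.16 CPM in the early libraries (2.42 ± 0.31, adjusted p = 0.00748), and FOS had 16.6 and 25.2 CPM in late replicate 2, against 5.79, 1.84, 2.41 and 6.13 CPM in the early libraries (2.34 ± 0.38, adjusted p = 0.0133). KLF2 had 84 counts in the late libraries and 46 in the early ones, a ratio of 3.61 (95% interval 2.49 to 5.29 for counting error, adjusted p = 0.0445). JUN, the usual partner of FOS, had 17.9 and 19.5 CPM in late replicate 2, against 15.5, 18.3, 25.0 and 17.7 CPM in the early libraries (-0.04 ± 0.19, adjusted p = 0.951). FOS lay above every early library and JUN inside the early range. Of 28 B cell identity genes, SYK, the kinase downstream of the B cell receptor, rose to 215 and 242 CPM in late replicate 2, against 160.1, 145, 118 and 141 CPM in the early libraries (0.69 ± 0.13, adjusted p = 0.0286), and CR2, the receptor that Epstein-Barr virus binds, fell to 149.7 and 159 CPM in late replicate 2, against 286, 226, 251 and 290.4 CPM in the early libraries (-0.77 ± 0.13, adjusted p = 0.0198). MS4A1, CD79A and PAX5 did not pass (adjusted p 0.128 to 0.826). Of 20 plasma cell genes 17 were higher with a median of 0.28, but none passed as higher, and CREB3L1, which fell, was the only member that passed. XBP1, the secretory factor of plasma cells, had 941 and 918 CPM in late replicate 2, 324 and 369 CPM in late replicate 1 and 734, 706, 615 and 734 CPM in the early libraries (0.41 ± 0.11 for late replicate 2 over early, adjusted p = 0.0904).

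Of 10 metal response and 30 NRF2 and antioxidant genes tested, 1 of each list passed the test in late replicate 2, where 2.72% of all genes did. MT2A, a metallothionein that binds metal ions, fell to 1.51 and 1.40 CPM in late replicate 2, against 3.07, 3.68, 3.42 and 4.09 CPM in the early libraries (-1.28 ± 0.29, adjusted p = 0.0464), and it had 5.88 and 8.32 CPM in late replicate 1. The other 9 metal response genes tested did not pass, and 8 of the 18 listed had too few counts. Among the NRF2 and antioxidant genes MGST3, a microsomal glutathione transferase, rose to 25.7 and 21.4 CPM in late replicate 2, against 12.02, 9.81, 16.1 and 13.0 CPM in the early libraries (0.89 ± 0.19, adjusted p = 0.0395), and HMOX1, heme oxygenase 1, had 2.94 and 2.41 CPM in late replicate 2, 11.1 and 13.8 CPM in late replicate 1 and 2.90, 2.15, 3.01 and 4.09 CPM in the early libraries (-0.18 ± 0.31 for late replicate 2 over early, adjusted p = 0.819). Late replicate 2 was thus inside the early range for HMOX1. DNAJA1, an HSP70 co-chaperone, fell to 314 and 317 CPM in late replicate 2, against 538, 522, 461 and 558 CPM in the early libraries (-0.72 ± 0.12, adjusted p = 0.0148), and WARS, the tryptophanyl-tRNA synthetase that interferon gamma induces, to 476 and 527 CPM in late replicate 2, against 798, 752, 722 and 770.1 CPM in the early libraries (-0.60 ± 0.11, adjusted p = 0.025). KDM5B, a histone demethylase, rose by 0.76 (adjusted p = 0.0145), and HIST1H4C, a histone gene with near-identical copies, by 1.12 (adjusted p = 0.0301). BIRC3, an inhibitor of cell death that NF-kB induces, fell to 378 and 369.6 CPM in late replicate 2, against 525, 821, 987 and 643 CPM in the early libraries (-1.0 ± 0.23, adjusted p = 0.0471). DNAJA1, KDM5B, HIST1H4C and BIRC3 were each the only member called on a list. These lists held 23 heat shock, 34 chromatin, 11 replication histone and 27 BCL2 family and death genes tested. WARS alone was called of 20 tRNA synthetases and of 37 ATF4 response genes. Over all genes 2.72% were called, and 7 of the 11 histone genes were lower.

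In 13 lists edgeR called no member: DNA replication and MHC class I above, and translation factors, ribosome biogenesis, respiratory chain, proteasome, cholesterol synthesis, double-strand break and crosslink repair, mismatch repair, excision repair, MYC network, autophagy and lysosome, and splicing. They held 434 tested members, of which 59 had an unadjusted p under 0.05, 11 were called by DESeq2 and 0 by limma-voom. Over all genes 17.5% had an unadjusted p under 0.05. DESeq2 called 620 of 12345 genes and limma-voom 277 of 12366. The excision repair list shares DDB2 and XPC with the p53 targets. Of 76 cytosolic ribosomal protein genes RPL8 alone passed, where 2.72% of all genes did. RPL8 stood at 117 and 143 CPM in late replicate 2 and 269 and 282 CPM in late replicate 1, with 91.0, 76.6, 69.4 and 77.4 CPM in the early libraries (0.72 ± 0.14 for late replicate 2 over early, adjusted p = 0.0264). The median of that list was 0.15 and 0.23 in late replicate 2, 1.45 and 1.39 in late replicate 1 and -0.14 to 0.16 in the early libraries. For respiratory chain genes the medians were 0.06 and 0.08 in late replicate 2, 0.76 and 0.70 in late replicate 1 and -0.14 to 0.16 in the early libraries, and for proteasome genes -0.03 and 0.04 in late replicate 2, 0.66 and 0.61 in late replicate 1 and -0.22 to 0.17 in the early libraries. On these lists late replicate 2 lay within or just above the early range.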

How the data were processed

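RNA of 8 libraries was sequenced as paired reads after poly-A selection, per the labels' protocols. The authors deposited raw read counts per gene symbol, one file a library. Per the submitters' processing notes, GRCh37 (hg19) was the build, and R 3.2.3, DESeq2 1.8.1, SAMtools, Trim Galore and Bowtie2 were used. How reads were assigned to genes, on which strand and with which annotation is not given in the sources used here, so overlapping and antisense genes and near-identical copies are uncertain. A set of 5 summary entries that name no gene took 42.6% to 57.5% of reads and were left out.

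From the counts, genes were kept with filterByExpr (minimum count 10, minimum total 15) over the 6 libraries compared, scaled with TMM and tested two-sided with glmQLFit and glmQLFTest of edgeR 4.0.16 in R 4.3.3, late replicate 2 against early, with no covariate and Benjamini-Hochberg adjustment over 12366 genes. Residual degrees of freedom were 4, prior ones 6.16, and the common biological coefficient of variation 0.145. CPM are counts scaled to TMM-adjusted library size over all 8 libraries, and list medians per library use log2 CPM with a prior count of 2. Standard errors come from the F statistic. The procedure was tested on simulated data.

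The members and gene lists were chosen with earlier results of these data known. Named genes are the 12 of smallest p per direction past the threshold that reached 2 CPM or more in the higher group, with separated groups, no clone identifier and no p53 target; up to 4 defining members of each list; and up to 4 further called members of each list. EBI3, NDRG1, NFKB1, REL, RELB, TNFAIP3, ITGAM, GBP3, ACTA2 and COL1A1 were named outside this rule, after their values were seen. A few genes that the rule names are not reported here. Alternatives were RLE and upper-quartile scaling, no filter and a filter of 50 counts in 2 libraries, DESeq2 1.42.0, limma-voom (limma 3.58.1), robust empirical Bayes, all 8 libraries, a replicate block, subsets of the early libraries, each library left out, and close libraries summed. Promoters and their motifs come from RefSeq on GRCh38.p14, matched by symbol, and no coordinate was converted.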

Additional observations from a re-analysis of the deposited data

Results flagged for a closer look

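Among 234 values tested, 7 had 1 of the 4 early libraries far from the other 3 by Dixon's gap over range, which chance exceeds in about 1 in 20 groups. The 24 h replicate 1 library was highest for HLA-DQA1 (221.5 CPM, others 193.7 to 196.5), TGFBR3 (4.219 CPM, others 2.458 to 2.602) and TNFAIP2 (41.89 CPM, others 31.33 to 32.07). It was lowest for MKI67 (301.7 CPM, others 401.3 to 421.4). Control replicate 1 was highest for RASSF4 (41.6 CPM, others 35.86 to 36.62) and XPC (92.6 CPM, others 71.22 to 74.08), and 24 h replicate 2 was highest for BRCA1 (103.4 CPM, others 84.38 to 86.46). For HLA-DQA1, TNFAIP2 and RASSF4 late replicate 2 lay below all 4 early libraries, and for TGFBR3, MKI67 and BRCA1 above them.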

How the results depend on the processing

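The numbers of genes called (130 higher and 206 lower) kept within 1.5 times under RLE scaling, upper-quartile scaling, the stricter filter, limma-voom and robust empirical Bayes. They were 235 and 362 with no filter, 266 and 354 with DESeq2, and 250 and 339 with all 8 libraries in the fit. Against control libraries only they were 78 and 117, against 24 h libraries only 9 and 24, against control 1 and 24 h 2 only 1305 and 1157, and against control 2 and 24 h 1 only 1223 and 1366. With close libraries summed, chosen after seeing the data, they were 12 and 24. With 1 library left out they ranged from 0 to 219 higher and from 0 to 280 lower. The lone late library left in such a fit is assumed to vary like the early ones, and fewer libraries enter each subset; otherwise the cause was not tested.

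With the replicate number as a block, 3 genes were higher and 14 lower, all 17 among the 336. The numbers do not pair the libraries: the differences between replicates 2 and 1 in control and at 24 h had r = -0.62 over 12366 genes, and the late libraries carry 1 number only. A block with crossed numbers was not fitted, as the late libraries belong to neither crossed pair. Close libraries were summed instead.

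For named genes, 3217 of the values under alternatives counted as unchanged. A called gene counted so if it kept its direction and its call. An uncalled gene counted so if it stayed uncalled and within its standard error, whatever its sign. Another 388 values lost the call, 125 gained it in the same direction and 98 stayed uncalled but moved by more than their error. The remaining 1 changed sign with a call in the main or the alternative fit. ATM (log2 fold change 0.07) was -0.29 against control 2 and 24 h 1 only. The medians of NF-kB targets (-0.86 to -0.58), B cell activation (-0.75 to -0.41), hypoxia (0.35 to 0.76) and mitosis genes (0.39 to 0.60) kept their sign under all 20 alternatives. Under the stricter filter no erythroid marker was tested, so that list has no median there. Genes with under about 100 counts in all late libraries, such as CREB3L1 and AQP9, have folds limited by depth.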

Other observations

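Of the 36 genes still called when close libraries were summed, some stood on no gene list, and a few are given here, chosen after their values were seen. UBD, the ubiquitin-like modifier FAT10, had 1.60 and 1.1 CPM in late replicate 2, against 13.9, 6.85, 4.12 and 8.36 CPM in the early libraries (log2 fold change of late replicate 2 over early -2.61 ± 0.50, adjusted p = 0.0273, edgeR with all 6 libraries). MS4A7, a membrane protein of the CD20 family, had 7.39 and 5.72 CPM in late replicate 2, against 18.6, 19.0, 22.7 and 16.3 CPM in the early libraries (-1.54 ± 0.20, adjusted p = 0.00766). LRRC32, the surface protein GARP that holds latent TGF-beta, went the other way, with 4.10 and 2.21 CPM in late replicate 2, against 0.176, 0.409, 0.804 and 0.372 CPM in the early libraries (2.84 ± 0.49, adjusted p = 0.0171).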
